A study of Mus musculus with 4 samples.

Results

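Transcripts of the transcription factor p53 and of 9 genes it is known to regulate or be regulated by were examined in mouse T cells. The 10 genes were taken from a fixed list by symbol (Trp53, Mdm2, Mdm4, Cdkn1a, Ccng1, Phlda3, Trp53inp1, Zmat3, Aen and Eda2r), and all 10 were found among the 50600 genes counted. The study sequenced RNA of a single cell type, labelled primary T-cell and of strain C57BL/6NJ, in 4 libraries numbered as biological replicates 1 to 4, with sex not collected and age unknown. The labels name no allele, agent or control group. They link a protocol for CD4 T-cell differentiation, and the sample names in the file headers begin mmTh0 and read activated and 72 h. All members are therefore described across replicates of a single condition, and nothing here compares activated with resting cells.

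p53 is a DNA-binding protein that cells accumulate after DNA damage and other stress. It switches on genes that halt the cell cycle, repair DNA or trigger apoptosis, and it also activates Mdm2, whose product marks p53 for degradation and so closes a feedback loop. Because p53 is governed largely through protein stability, the level of its mRNA does not measure its activity. In T cells the pathway is known for restraining division and for removing damaged thymocytes and dividing lymphocytes.

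A p53 binding element consists of a pair of 10-base half-sites, and such matches were sought in RefSeq promoters (GRCm38.p6, the assembly also called mm10) running from 250 bases before to 50 bases after each listed start. The p53 half-site consensus reads the same on either strand, so a single scan covered both strands. An element was a pair of adjoining half-sites with no spacer and at most 2 mismatches over 20 positions. The table held 8 of the 10 members, Trp53inp1 and Zmat3 being the others. Of 32851 promoters searched, 262 (0.798%) held an element and 2745 (8.36%) a perfect half-site. Among the 8 members, Cdkn1a and Ccng1 held an element (2 of 8, against 254 of 27025 genes, or 0.940%), and 5 held a perfect half-site (9.55% of genes). A match is a description of the sequence, and binding was not measured. The members were listed because they are tied to p53, so their share of matches is not a test of that tie.

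The best match of each of 4 members is shown because these are the members closest to the element, with 3 mismatches at most and a perfect half-site. Capitals mark the central bases of each half-site, read 5′ to 3′ on the strand of the gene.
Cdkn1a: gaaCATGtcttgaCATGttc
Ccng1: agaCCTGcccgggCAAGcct
Trp53: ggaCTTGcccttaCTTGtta
Aen: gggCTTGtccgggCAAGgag
The Cdkn1a and Ccng1 matches had 1 mismatch each, a closeness reached by 29 of the 32851 promoters (0.0883%). Those of Trp53 and Aen had 3 mismatches, as 6.29% of promoters did at best or better. One of the Mdm4 promoters also reached 3 mismatches, without a perfect half-site. The best matches of Mdm2 and Phlda3 had 5 mismatches and that of Eda2r had 6, which says only that these letters are not in these windows. An element of Mdm2 known from earlier work lies in its first intron, outside the window searched. The Phlda3 window ends in bases that fit the start of a half-site, and a site crossing that edge could not be scored.

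The promoters of the 2 members with an element are shown whole, with the element in capitals. These were also the 2 most abundant members, but a relation between element and level was not tested. For Cdkn1a the window lies before the more distal of its 2 listed starts (chr17:29090729-29091028, plus strand), and the element begins 51 bases before that start, upstream of the annotated gene.
Cdkn1a distal promoter: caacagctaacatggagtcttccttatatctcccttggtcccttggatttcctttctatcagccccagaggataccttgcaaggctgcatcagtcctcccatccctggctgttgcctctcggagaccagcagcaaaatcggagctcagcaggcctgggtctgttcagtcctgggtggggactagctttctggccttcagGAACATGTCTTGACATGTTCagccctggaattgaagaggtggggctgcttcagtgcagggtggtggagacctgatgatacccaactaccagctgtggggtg
The proximal start of Cdkn1a lies 2790 bases downstream, and its window held neither an element nor a perfect half-site. For Ccng1 (chr11:40755237-40755536, minus strand) the element begins 195 bases before the start.
Ccng1 promoter: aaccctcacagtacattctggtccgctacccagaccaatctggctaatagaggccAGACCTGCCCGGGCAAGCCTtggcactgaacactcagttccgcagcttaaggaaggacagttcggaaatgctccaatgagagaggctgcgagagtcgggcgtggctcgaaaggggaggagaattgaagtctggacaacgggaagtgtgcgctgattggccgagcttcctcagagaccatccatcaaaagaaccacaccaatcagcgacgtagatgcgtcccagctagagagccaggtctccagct

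**Figure D1:**
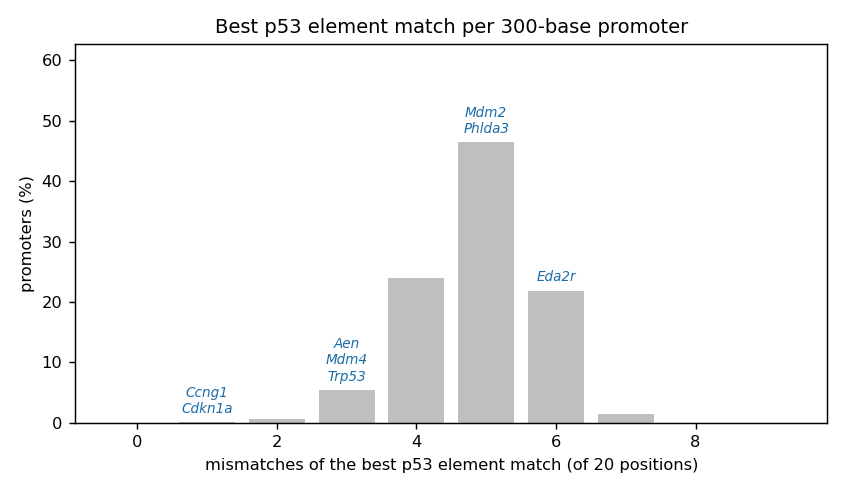
Share of 32851 RefSeq promoters (y axis, percent) by the number of mismatches of their best p53 element match (x axis, of 20 positions). Member names stand above the bar of their best promoter: Cdkn1a and Ccng1 at 1 mismatch, Trp53, Mdm4 and Aen at 3, Mdm2 and Phlda3 at 5, and Eda2r at 6, while the most common value over all promoters was 5 (46.4%).

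Library totals ran from 49613182 to 94222415 counted fragments, and levels are in TPM, the count per exon length scaled so that each library sums to the same total. T-cell genes set the background of the libraries: the summed TPM of 6 T-cell markers was 6195 to 6497, and Cd4 stood at 977 to 1129. The sums were 3.27 to 5.08 for 5 B-cell, 12.2 to 15.3 for 4 macrophage and monocyte, 12.9 to 18.2 for 2 CD8 and at most 1.09 for each of 6 other marker lists. Ms4a1, Lyz2, Csf1r, Ncr1 and Itgax stood near 0, Cd79b, Cd68 and Adgre1 were detected, Cd8b1 stood at 12.7 to 18.1 TPM while Cd8a stood at 0.0792 to 0.311, and all 3 neutrophil and both platelet markers had 0 counts. Although the labels carry a single donor identifier, Xist stood at 332 and 150.1 TPM in replicates 1 and 2 and at 0.877 and 0.392 in replicates 3 and 4, while the Y-linked gene Ddx3y stood at 0.0344 and 0.0834 against 49.0 and 45.8. Transcripts of the sex chromosomes thus divided the libraries into 2 pairs. Replicates 1 and 2 had the pattern of female cells and replicates 3 and 4 that of male cells, so each member is given by replicate. The sources do not settle whether each library came from a separate animal, and p-values then measure only the spread between these libraries. In bulk RNA, fewer cells carrying a transcript and less of it per cell cannot be told apart.

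All 10 members were detected, that is, at a TPM of 1 or more in every library, as were 49.4% of protein-coding genes. The median of their means was 114 TPM, beside 1.21 TPM over all 21764 protein-coding genes. Over the 13681 genes of any type that passed a filter on low counts, as all 10 members did, that median was 22.8 TPM. In all, 8 of the 10 stood at 50 TPM or more in every library, Mdm4 lay on either side of that level, and Eda2r alone stayed under 10 TPM. Together the 10 genes took 0.291%, 0.287%, 0.294% and 0.299% of the counts in replicates 1 to 4, and their summed TPM lay between 2713 and 2864.

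Trp53, which encodes p53 itself (ENSMUSG00000059552, mm10 chromosome 11, 69580359 to 69591873, plus strand), stood at 217, 213.8, 238 and 229 TPM in replicates 1 to 4, from 14746, 13969, 13425 and 25788 counts. Replicates 3 and 4 lay above replicates 1 and 2, by little: the highest library exceeded the lowest 1.11-fold, and the mean was 225 ± 11.3 TPM (SD, n = 4). That mean exceeded those of 96.3% of protein-coding genes. The related genes of the p53 family were almost silent. Trp63, a regulator of epithelial stem cells, had 0 counts in every library, which allows up to 0.0257 TPM at 3 counts per library, and Trp73 had 8, 5, 3 and 12 counts (0.0648 ± 0.0214 TPM). Trp53 was at least 9283-fold higher than Trp63 in each library against that floor of 3 counts. The processed pseudogene Trp53-ps had 0, 13, 1 and 12 counts, so reads shared with this copy can be missing from Trp53.

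The negative regulators of p53 came next. Mdm2 (mm10 chromosome 10, 117688875 to 117710758, minus strand), the ubiquitin ligase that targets p53 for degradation and is itself a p53 target, stood at 139, 128.7, 141 and 134 TPM. All 4 values lay within 1.10-fold of one another (136 ± 5.66 TPM). Its partner Mdm4 (mm10 chromosome 1, 132959484 to 133030561, minus strand), which binds p53 and blunts its transactivation, stood at 68.7, 45.0, 58.7 and 47.0 TPM. Replicates 1 and 3 were the high libraries and replicates 2 and 4 the low ones, a range of 1.53-fold around 54.9 ± 11.03 TPM.

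Within libraries, Mdm2 was at 0.640, 0.602, 0.593 and 0.583 of the Trp53 level in replicates 1 to 4, a ratio of 0.604 ± 0.0247 (SD, n = 4). The ratio of Mdm2 to Mdm4 was 2.02, 2.86, 2.41 and 2.84, and so followed the spread of Mdm4. On the log2(TPM + 1) scale Mdm2 minus Mdm4 was 1.31 ± 0.23 and Mdm2 minus Trp53 was -0.72 ± 0.06, with the same sign in 4 of 4 libraries each. For all 12 gene pairs compared, the exact two-sided sign-flip test gave p = 0.13 after rounding, before and after adjustment over the pairs, which is the smallest that 4 libraries allow, so no pair could pass a threshold of 0.05.

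Cdkn1a and Ccng1 were the most abundant members. Cdkn1a (mm10 chromosome 17, 29090979 to 29100722, plus strand), which encodes the p21 inhibitor of cyclin-dependent kinases, stood at 934, 994, 963 and 1048 TPM. Its libraries lay within 1.12-fold, and with a mean of 985 ± 48.8 TPM it ranked 92 among protein-coding genes. The gene for the sister inhibitor p27, Cdkn1b, stood at 30.1 ± 0.899 TPM, so that Cdkn1a was 32.8 ± 2.13 times as high (log2 difference 4.99 ± 0.09, 4 of 4 libraries). Cdkn1c, the third of this inhibitor family, stood at 0.146, 0.668, 1.34 and 0.688 TPM.

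Ccng1 (mm10 chromosome 11, 40748552 to 40755311, minus strand) encodes cyclin G1, which recruits a phosphatase to Mdm2, and stood at 809.9, 748, 820.2 and 790.0 TPM. Replicate 2 was the lowest, yet the libraries spanned only 1.10-fold, and the mean of 792 ± 32.1 TPM ranked 129. Ccng2, which encodes the related cyclin G2, stood at 31.8 ± 1.36 TPM, and Ccng1 exceeded it by 4.60 ± 0.06 on the log2 scale in 4 of 4 libraries. Cdkn1a exceeded Ccng1 in 4 of 4 libraries, by 0.31 ± 0.11, and their ranges did not overlap.

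Of the members not yet described, Phlda3 was the highest. Phlda3 (mm10 chromosome 1, 135766119 to 135769136, plus strand), whose product competes with the kinase AKT for membrane lipids, stood at 302, 330.3, 296 and 337 TPM. Here replicates 2 and 4 were high and replicates 1 and 3 low, the reverse of Mdm4, and the mean was 316 ± 20.6 TPM. The relative Phlda1 stood at 41.5 ± 3.85 TPM, lower by a log2 difference of 2.90 ± 0.17, and Phlda2 had 0, 5, 1 and 1 counts.

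Trp53inp1 (mm10 chromosome 4, 11156431 to 11174379, plus strand), a stress-induced cofactor linked to apoptosis and autophagy, stood at 85.6, 88.8, 103 and 93.0 TPM. Zmat3 (mm10 chromosome 3, 32334792 to 32366014, minus strand), an RNA-binding zinc-finger gene, stood at 90.1, 81.6, 104 and 91.5 TPM. Aen (mm10 chromosome 7, 78895854 to 78911209, plus strand), which encodes a nuclease active in apoptosis, stood at 94.8, 79.9, 91.7 and 90.0 TPM. These 3 genes shared a level, at means of 92.5 ± 7.46, 91.7 ± 9.18 and 89.1 ± 6.46 TPM. Replicate 3 was the highest library for Trp53inp1 and Zmat3, and replicate 2 the lowest for Zmat3 and Aen.

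Each of these 3 exceeded its relative in 4 of 4 libraries. Trp53inp2 stood at 13.7 ± 0.672 TPM, Zmat1 at 2.86 ± 0.772 and Isg20 at 10.9 ± 1.53. The log2 differences were 2.67 ± 0.17, 4.60 ± 0.22 and 2.93 ± 0.09. Isg20, an exonuclease gene known for antiviral activity, is also the next protein-coding gene to Aen on chromosome 7. The third of that exonuclease family, Isg20l2, stood above Aen, at 135 ± 7.06 TPM, so these levels do not separate the members from all their relatives.

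Eda2r (mm10 chromosome X, 97333840 to 97377216, minus strand), a TNF-family receptor for ectodysplasin A2, was the lowest member. It stood at 4.26, 2.98, 6.51 and 3.48 TPM from 421, 284, 534 and 569 counts. Replicate 3 was the highest and replicate 2 the lowest, a range of 2.18-fold around 4.31 ± 1.56 TPM. Eda2r is X-linked, and the libraries with high Xist did not stand apart from the others. The related ectodysplasin receptor gene Edar had 0 counts in every library, which allows up to 0.0592 TPM, and Eda2r was at least 58.4-fold higher in each library against the floor of 3 counts per library.

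**Figure D2:**
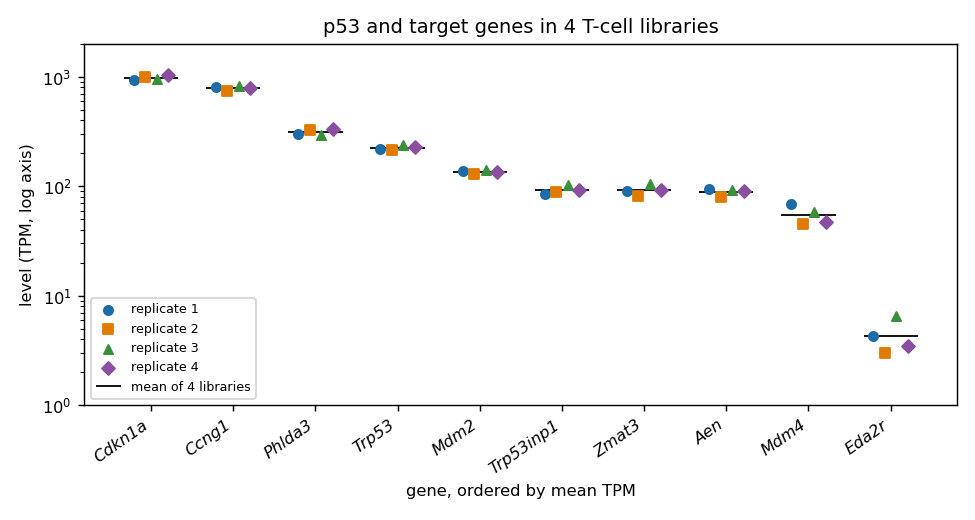
Level of the 10 members (y axis, TPM on a log axis) in each library (points, by replicate) with the mean of 4 libraries (lines), ordered by mean. Cdkn1a and Ccng1 stand at 985 and 792 TPM, Eda2r at 4.31 TPM, and the points of Mdm4 and Eda2r spread the most.

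The order of the members from high to low was Cdkn1a, Ccng1, Phlda3, Trp53, Mdm2, Trp53inp1, Zmat3, Aen, Mdm4 and Eda2r. For 7 of the 9 neighbouring pairs the ranges over libraries did not overlap and the sign was the same in 4 of 4 libraries. Trp53inp1 and Zmat3 could not be ordered: Trp53inp1 was the higher in 2 of 4 libraries, with a mean log2 ratio of 0.01 ± 0.08. Nor could Zmat3 and Aen, where Zmat3 was the higher in 3 of 4 libraries (0.04 ± 0.10). The steepest step, 12.7-fold between means, separated Mdm4 from Eda2r. Levels are per union of annotated exons, so a gene with long exons that these cells do not use, as may hold for the 14798 bases of Mdm4, is understated to an unknown degree.

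**Figure D3:**
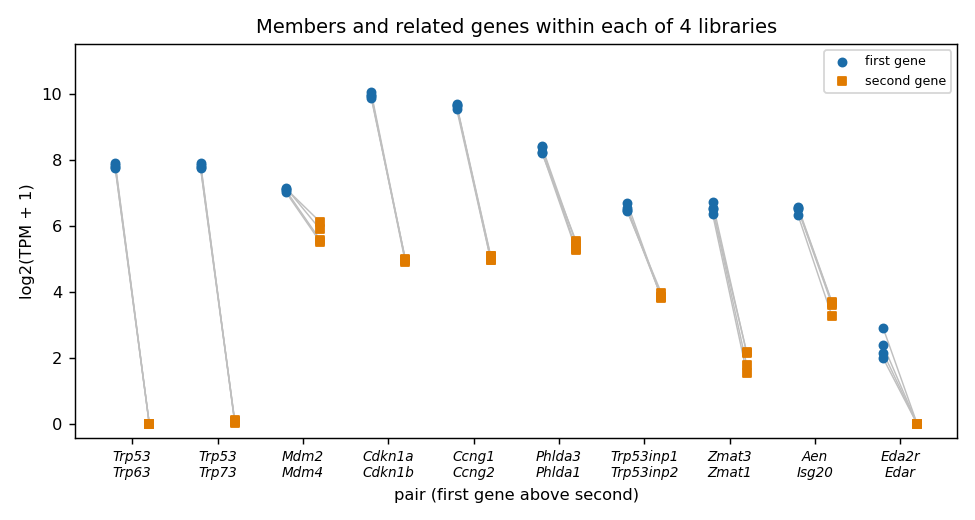
Pairs of a member (circles) and a related gene (squares) on the log2(TPM + 1) scale (y axis), joined within each of 4 libraries (grey lines). Trp53 is paired with Trp63 and with Trp73, and Mdm4 appears only as the relative of Mdm2. Isg20l2, which stood above Aen, is not shown. In all 10 pairs shown the first gene is the higher in every library, from a difference of 1.31 for Mdm2 and Mdm4 to 7.82 for Trp53 and Trp63.

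Whether any member varied between libraries by more than genes of its abundance was tested with edgeR over all genes passing a filter on low counts, by the deviance from a common mean. All 10 members passed the filter, and 0 of 10 were called at an adjusted p under 0.05, beside 0.687% of the 13681 genes tested (94 genes, and 38 to 87 when a library was left out). At an unadjusted p under 0.05 the count was 2 members, Mdm4 (edgeR adjusted p = 0.159) and Eda2r (edgeR adjusted p = 0.153), beside 959 of the 13681 genes. The same test with DESeq2 size factors and dispersion trend also called 0 of 10, whereas a common dispersion in place of the trend called 1, Eda2r (edgeR adjusted p = 0.00790). The 8 others had an edgeR p of 0.160 or more, Mdm2 at 0.998. Their coefficients of variation ran from 4.05% for Ccng1 to 10% for Zmat3, beside 20.1% for Mdm4 and 36.2% for Eda2r. The median over protein-coding genes of at least 50 TPM was 6.18%, a set that does not hold Eda2r, at a mean of 4.31 TPM. Over all genes tested the median was 9.45%.

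The results of Mdm4 and Eda2r also depended on the libraries used. Without replicate 3 Mdm4 was called (edgeR adjusted p = 0.0302), and without replicate 1 Eda2r was (edgeR adjusted p = 0.0375). Neither was called when any other single replicate was left out. Mdm4 moved to an edgeR adjusted p of 0.9999 without replicate 1, and Eda2r to 0.9999 without replicate 3. With offsets for exon length Mdm4 moved to an edgeR adjusted p of 0.485 and Eda2r to 0.208.

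The direction of the spread was shared by many genes. Replicate 2 was the lowest library for 7 of 10 members, beside 41.1% of genes tested, and replicate 3 the highest for 6 of 10, beside 38.4%. Over the protein-coding genes tested, exon length moved with this order, most in the longest class. Among 1002 protein-coding genes with exons of 10000 bases or more, the median log2 deviation from the gene's own mean was 0.09, -0.18, 0.15 and -0.06 in replicates 1 to 4, and among 912 genes under 1500 bases it was -0.01, 0.09, -0.12 and 0.05. Among 3757 genes of 5000 to under 10000 bases the median was 0.04, -0.10, 0.10 and -0.04. Of the members, only Zmat3 and Mdm4 have exons of 10000 bases or more. Zmat3, with 11435 bases, deviated by -0.02, -0.16, 0.18 and 0.00. Mdm4, the longest member, deviated by 0.35, -0.26, 0.12 and -0.20, farther out than the median of long genes in replicates 1, 2 and 4 and less far in replicate 3. Phlda3, the shortest at 1559 bases, deviated by -0.06, 0.07, -0.10 and 0.10. It lies in the class of 1500 to under 5000 bases, as do Trp53, Cdkn1a and Ccng1. The medians of the 6260 genes in that class were 0.006, -0.023, 0.028 and -0.003, opposite in sign to Phlda3 in each replicate. The part of exon length in these deviations was not tested beyond the fit with offsets.

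Replicates 3 and 4 both lay above replicates 1 and 2 for 3 members (Trp53, Trp53inp1 and Zmat3), beside 18.9% of genes tested. The reverse held for 0 of 10, beside 12.2%. For Trp53 the means of the pairs were 216 and 234 TPM. These pairs are those that Xist divides, not groups of the study, and no test between them was made.

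**Figure D4:**
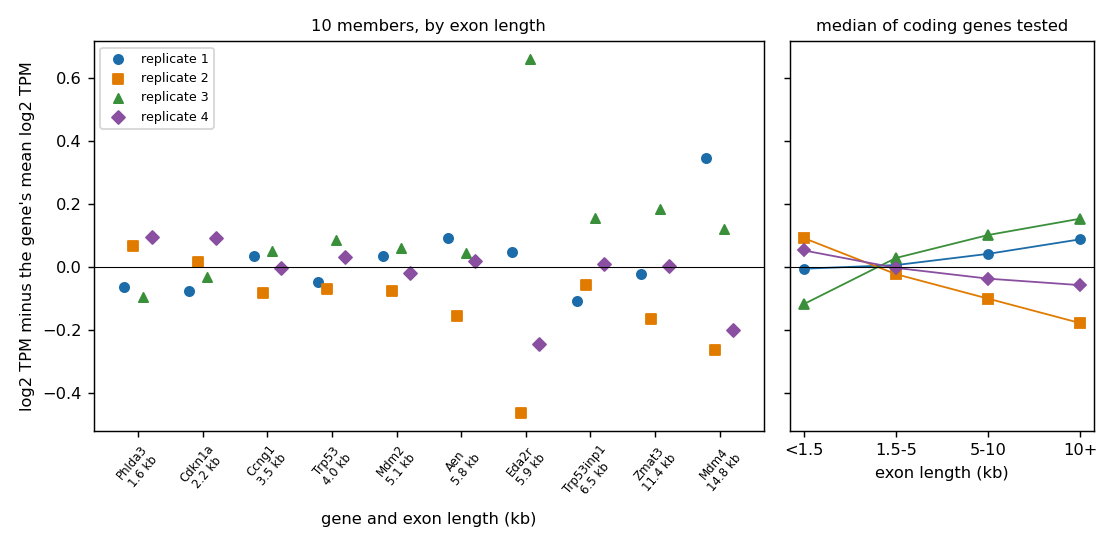
Left, log2 TPM of each member minus its own mean over 4 libraries (y axis), members ordered by exon length; right, the median of the same deviation over protein-coding genes tested in 4 classes of exon length (x axis, kb). From the shortest to the longest class the median of replicate 2 goes from 0.09 to -0.18 and of replicate 3 from -0.12 to 0.15. On the left, Mdm4 and Eda2r spread the most among the members.

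The wider pathway was described from lists of 54 further genes. Of these 50 were detected, beside 49.4% of protein-coding genes. The lists were chosen with earlier results of these data known, so that share is a description and not a test. By edgeR 0 of the 51 tested were called variable, beside 0.687% of the 13681 genes tested. At an unadjusted p under 0.05 the count was 8 of the 51, beside 959 of the 13681. All 10 activators and cofactors were detected, from 7.34 TPM for the kinase gene Hipk2 upward. They were led by the acetyltransferase genes Kat5 (86.1 ± 5.60 TPM) and Ep300 (48.0 ± 6.25) and by Trp53bp1 (37.7 ± 3.99), whose product marks DNA breaks. The damage kinase gene Atm stood at 38.1, 25.4, 35.2 and 27.3 TPM, high and low in the same libraries as Mdm4, with exons of 10338 bases (edgeR adjusted p = 0.147).

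Regulators of p53 and Mdm2 stability showed 8 of 9 genes detected. Rpl11 (329 ± 41.7 TPM) and Rpl5 (255 ± 31.2), ribosomal proteins that can bind Mdm2, led the list, although reads shared with their many near-identical pseudogene copies may be missing. Usp7, a deubiquitinase of both p53 and Mdm2, followed at 114 ± 11.6 TPM. The exception was Cdkn2a, the locus of the Mdm2 inhibitor ARF, at 0.661, 0.845, 0.490 and 0.215 TPM from 7 to 16 counts. The phosphatase gene Ppm1d, a p53 target that opposes the damage kinases, stood at 53.3 ± 1.16 TPM.

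Of 35 other targets 32 were detected, with a median of 59.1 TPM. In the arrest and stress list 9 of 10 were detected, led by Psrc1 (185 ± 12.04 TPM), the polo-like kinase gene Plk3 (155 ± 15.9) and the leucine sensor gene Sesn2 (123 ± 13.9). Rprm was below 1 TPM in replicates 2 and 4, at 1.06, 0.848, 1.38 and 0.321 TPM. All 11 apoptosis targets were detected, led by Bax, a pore-forming BCL2 relative, at 493 ± 53.1 TPM, Siva1 at 243 ± 39.2 and Perp at 145 ± 8.58. Siva1 stood at 216, 285, 204 and 266 TPM, high in replicates 2 and 4 as Phlda3 was, and was the nearest to a call (edgeR adjusted p = 0.0560, exons of 782 bases).

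Among 14 repair and metabolism targets 12 were detected. Rps27l, a small ribosomal protein paralog, led at 712 ± 91.7 TPM, before the mTORC1 inhibitor gene Ddit4 at 498 ± 46.6 and the reductase gene Dcxr at 121 ± 8.72. The secreted stress factor gene Gdf15, a known p53 target, had 0, 0, 3 and 5 counts (0, 0, 0.116 and 0.0972 TPM). Dram1, an autophagy gene, stood at 0.842, 0.732, 1.04 and 0.709 TPM. The targets thus ran from Rps27l, close to Cdkn1a and Ccng1, down to Gdf15 at the floor.

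**Figure D5:**
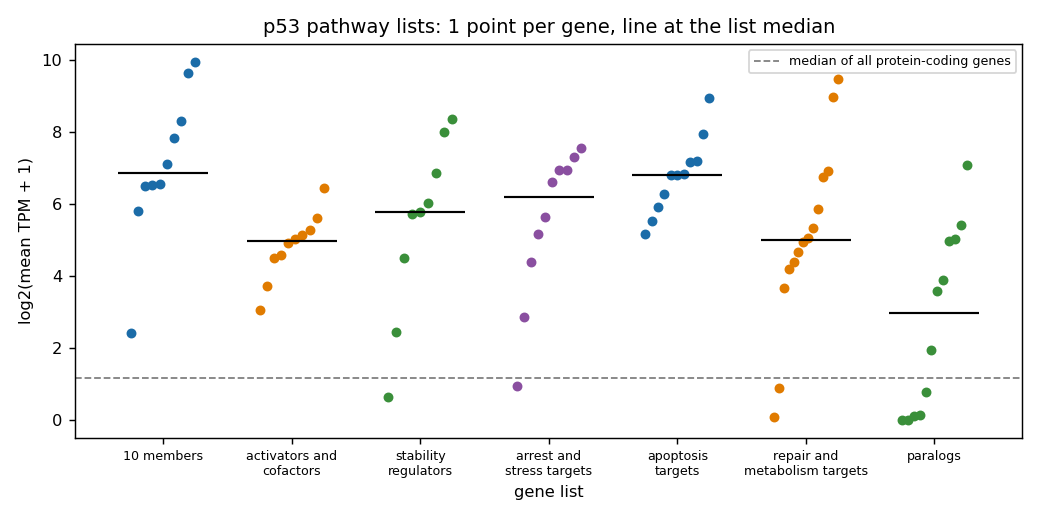
Mean level of each gene on the log2(mean TPM + 1) scale (y axis) in the 10 members, 5 pathway lists and the list of relatives (x axis); lines mark list medians and the dashed line the median of protein-coding genes. The members' median is 114 TPM and that of the apoptosis targets 111 TPM, while 5 of 12 relatives stayed below 1 TPM in at least 1 library.

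Genes closest to a member in level were sought over all protein-coding genes by the root mean square difference in log2(TPM + 1) over the 4 libraries, a description over 4 points. Nearest to Trp53 were Mars (0.023), Brd2 (0.031) and Npepl1 (0.034). Nearest to Mdm2 were Isg20l2 (0.017), Cdv3 (0.025) and Rbm10 (0.026), and nearest to Cdkn1a were Cotl1 (0.013), Eno1 (0.068) and Tnfrsf18 (0.073). Within 0.2 of the profile lay 218 genes for Trp53, 439 for Mdm2 and 29 for Cdkn1a.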

How the data were processed

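RNA sequencing of 4 T-cell libraries was analysed from the deposited gene tables, whose values are raw fragment counts. The authors ran featureCounts 1.4.6-p4, per the file headers, requiring both mates to be aligned and counting on the reverse strand over exons grouped by gene in GENCODE mouse release 13. That command does not ask for multimapping reads, and reads that fit several copies of a gene may have been lost. Coordinates are those of mm10, per the labels. An aligner version is not given in the sources used here. The assay is labelled total RNA, while the linked library protocol is named for polyadenylated RNA.

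Symbols came from GENCODE mouse release 21 by Ensembl identifier without version (50376 of 50600 genes matched). TPM was computed from counts and exon lengths over all genes. Exons of the 10 members overlapped those of no other gene on either strand in the counting annotation. Variation between libraries was tested in edgeR 4.0.16 (R 4.3.3) on the counts, with TMM factors, filterByExpr, trended dispersion and a fit of 1 mean per gene, whose deviance was referred to chi-square with 3 degrees of freedom and adjusted by Benjamini-Hochberg over all genes tested. Gene pairs were compared on log2(TPM + 1), which understates differences of low genes, by exact sign-flip tests over 16 patterns, adjusted over 12 pairs. Floors are 3 counts per library and cover counting error only. Promoters came from RefSeq (GRCm38.p6). The fits and the motif scan were tested on simulated data. Python 3.11.15, numpy 2.4.6, pandas 2.3.3 and matplotlib 3.10.9 served for the rest.

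The members, lists and pairs were chosen with earlier results of these data known. Named genes are the members, the pairs, the 3 highest genes of each pathway list, genes below 1 TPM in any library, and the 3 nearest genes in level to Trp53, Mdm2 and Cdkn1a. Atm, Hipk2, Ppm1d, Gadd45a, Trp53-ps and the neighbouring genes were named after their values were seen. Alternatives were other TPM thresholds, a count threshold, TPM over protein-coding genes, TMM-scaled values, another pseudocount, other filters, a common dispersion, DESeq2 1.42.0 size factors and dispersion trend, and leaving out each replicate. Offsets for exon length were added after seeing the data.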

Additional observations from a re-analysis of the deposited data

Results flagged for a closer look

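Of 86 sets of 4 library values examined (members, pathway genes and pairs), 3 held a library far from the others relative to the range of the set. Chance alone gives about 1 in 20. Trp53inp2 stood at 14.7 TPM in replicate 1 and at most 13.4 in the others, a gap of 0.876 of the whole range. Gadd45a, a growth-arrest target, stood at 5.91 TPM in replicate 1 and at least 6.28 in the others, a gap of 0.933 of the range. The log2 difference of Aen minus Isg20 was 3.07 in replicate 2 and at most 2.89 in the others, a gap of 0.848 of the range. None of the 10 members had such a library.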

How the results depend on the processing

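The count of detected members was 10 under every alternative tried except a TPM threshold of 5, which gave 9 without Eda2r. The 66 genes of the pathway lists, relatives included, gave 57 detected and 55 to 59 under the alternatives. Variable genes numbered 94, but 617 with a common dispersion, 67 with no filter on low counts, 93 to 106 under the other alternatives with all libraries, and 38 to 87 when a replicate was left out. Variable members numbered 0, but 1 (Eda2r, edgeR adjusted p = 0.00790) with a common dispersion and 0 to 1 when a replicate was left out, these being Mdm4 without replicate 3 and Eda2r without replicate 1. The other 8 members were called under no alternative. The causes were not tested. The order of the 10 members kept 8 to 10 positions when a replicate was left out, with Zmat3 and Trp53inp1 exchanged without replicate 2 and Zmat3 and Aen exchanged without replicate 3. It kept all 10 with TPM over protein-coding genes or TMM scaling. All 12 pair differences kept their direction under a pseudocount of 0.1, TMM scaling, TPM over protein-coding genes and each left-out replicate, where 3 libraries allow no p below 0.25. No paired analysis was possible because the labels give a single group. Depth limits Trp63, Trp73, Edar, Phlda2 and Gdf15, whose levels rest on 12 counts or fewer per library.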

Other observations

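Protein-coding genes next to the members, examined after the members' values were seen, covered a wide range. Wrap53, which starts beside Trp53 on the opposite strand and shares no exon base with it in the counting annotation, stood at 54.4 ± 1.64 TPM (SD, n = 4) beside 225 for Trp53. Atp1b2, on the other side of Trp53, stood at 1.99 ± 0.538 TPM. Beside Cdkn1a, the splicing factor gene Srsf3 stood at 193 ± 12.6 TPM and Rab44 at 0.309 ± 0.176. The long non-coding RNA gene Trp53cor1, near Cdkn1a on chromosome 17, had 132, 110, 95 and 158 counts, or 2.66, 2.30, 2.31 and 1.92 TPM. Beside Ccng1, at 792 TPM, Nudcd2 stood at 243 ± 15.8 TPM. Kcnmb2 beside Zmat3 and Lrrn2 beside Mdm4 had 0 counts in all 4 libraries.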
